A study of Mus musculus with 4 samples.

Results

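Moderately expanded T-cell clonotypes were taken here as those that each held more than 0.01% and at most 0.1% of the in-frame T-cell receptor β (TRB) counts of their library. Rows that kept the reading frame were merged where nucleotide CDR3, V segment and J segment were all identical, and each such triple is 1 clonotype. By this rule 2427 of 238470 in-frame clonotypes were members. They were 1040 of 47558 in wild-type 1, 332 of 73769 in wild-type 2, 416 of 47017 in Vsig4-deficient 1 and 639 of 70126 in Vsig4-deficient 2. The 235861 clonotypes at or below 0.01% of the same libraries, called smaller clonotypes, served for comparison, and 182 clonotypes lay above 0.1%. Members were chosen by their counts, so their number and share of counts within a library are descriptions.

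Each developing T cell assembles its TRB gene by joining 1 V, 1 D and 1 J segment, trimming the ends and adding bases without a template at the joints. The CDR3 loop spans this joint and touches the peptide held by a major histocompatibility molecule. All progeny of a T cell carry the same rearrangement. The count of a sequence therefore follows the number of cells of a clone and the receptor RNA per cell. It may also follow how well its V and J segments were amplified, which was not tested. These parts cannot be told apart in bulk RNA. Rearrangements with few added bases are made more often than others, and distinct nucleotide sequences can encode the same receptor, which is called convergent recombination.

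CD8+ T cells (DAPI-CD45+CD3+CD8+) had been sorted from livers bearing MC38 metastases, which the labels call melanoma although MC38 is known as a colon adenocarcinoma line of the mouse, 14 days after the tumour cells were injected. Livers came from wild-type (WT) mice or from mice lacking Vsig4 (Vsig4-/-), which encodes a complement receptor of liver macrophages. There were 2 libraries per genotype, all from tumour-bearing livers, and the labels give no age, no sex and no tumour-free group. Nothing in the labels ties a library to a mouse. The p-values below therefore cover the spread among these libraries alone, and that spread may be technical. Tests over segments, lengths or residues pooled part of that spread across features. Such a p-value does not rest on the spread of a single feature alone. Where 4 values are given, they stand in the order wild-type 1, wild-type 2, Vsig4-deficient 1, Vsig4-deficient 2.

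The following CDR3 sequences carry the main patterns of sharing. Capitals mark the bases between the last V base and the first J base, which hold D bases and untemplated bases. The first 3 were members in the most libraries with a single nucleotide sequence each. Recurrent 3 and recurrent 1 were also the largest members of wild-type 2 and Vsig4-deficient 2, and the largest members of the other 2 libraries follow.
Recurrent 1 (TRBV3, TRBJ2-1): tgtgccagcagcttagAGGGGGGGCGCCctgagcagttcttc
Recurrent 2 (TRBV13-1, TRBJ2-1): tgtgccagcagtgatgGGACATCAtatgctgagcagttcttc
Recurrent 3 (TRBV13-3, TRBJ2-2): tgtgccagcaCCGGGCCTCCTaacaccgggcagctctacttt
Largest of wild-type 1 (TRBV13-3, TRBJ1-2): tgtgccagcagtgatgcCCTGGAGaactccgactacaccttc
Largest of Vsig4-deficient 1 (TRBV14, TRBJ2-5): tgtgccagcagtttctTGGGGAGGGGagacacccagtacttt

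The next 2 sets show receptors reached through several nucleotide sequences. Sequences of a set encode the same amino acids with the same V and J segment, and differ mainly in the capital bases and in how far V and J were trimmed.
Recurrent 5a (TRBV3, TRBJ1-3; member in wild-type 1): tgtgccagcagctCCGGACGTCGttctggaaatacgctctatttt
Recurrent 5b (member in Vsig4-deficient 1): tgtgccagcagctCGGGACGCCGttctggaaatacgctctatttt
Recurrent 5c (member in wild-type 2): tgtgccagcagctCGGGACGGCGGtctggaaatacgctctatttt
Recurrent 6a (TRBV13-3, TRBJ2-2; member in wild-type 2 and Vsig4-deficient 2): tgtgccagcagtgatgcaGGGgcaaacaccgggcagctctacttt
Recurrent 6b (member in both wild-type libraries): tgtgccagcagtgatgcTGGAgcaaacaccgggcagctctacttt

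The last set is 1 of 3 receptors tied for the most member sequences inside 1 library, shown for its highest summed count, all in wild-type 1.
Convergent a (TRBV13-2, TRBJ2-3): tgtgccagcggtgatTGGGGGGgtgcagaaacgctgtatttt
Convergent b: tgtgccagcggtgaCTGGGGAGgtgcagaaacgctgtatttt
Convergent c: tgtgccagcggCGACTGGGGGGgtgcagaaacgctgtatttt

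In-frame totals were 875201, 857452, 958198 and 1227914 counts. The lower limit therefore fell at 87.5, 85.7, 95.8 and 123 counts. The smallest members had 88, 86, 96 and 123 counts and the largest smaller clonotypes 87, 85, 95 and 122. The largest members had 861, 841, 950 and 1220 counts, and the next clonotypes above them 892, 934, 965 and 1259. Most members lay near the lower limit. Their median share was 0.0130%, 0.0132%, 0.0171% and 0.0145%, and 84.0%, 75.9%, 58.2% and 69.5% of them were at or below 0.02%.

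Many members of a library were also listed, at a far lower share, in another one. Of the Vsig4-deficient 1 members, 334 of 416 (80.3%) were listed with the same nucleotide sequence in Vsig4-deficient 2, at a median of 1.39% of their own share. In the other direction it was 145 of 639 (22.7%), at a median of 4.97%. Of the wild-type 2 members, 55.4% were listed in wild-type 1 and 41.9% in Vsig4-deficient 2, at medians of 1.97% and 1.59%. Whether such sequences are the same clone in separate animals or carry-over between libraries was not tested. Few members were themselves this faint beside another library: 2, 5, 1 and 15 members had under 5% of their share elsewhere. With these and the like smaller clonotypes left out, V use, J use, length classes and loop residues had 10, 5, 3 and 10 calls, the same features as with all clonotypes. Sharing was measured below with sequences that encode the same receptor by other bases. Such a sequence may also be listed in the clonotype's own library. Carry-over of that second sequence was not set apart.

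The genotypes overlapped in the number of members and in the counts they held. The Vsig4-deficient numbers, 416 and 639, lay between the wild-type numbers, 332 and 1040. Means were 686 ± 501 (SD, n = 2) and 528 ± 158 (SD, n = 2), with p = 1 in an exact permutation test (two-sided), where 0.333 is the smallest p that 2 against 2 libraries allow. Of the wild-type counts, 17.5% (95% Wilson interval 17.4 to 17.6) and 6.39% (6.34 to 6.45) belonged to members. Of the Vsig4-deficient counts it was 10.6% (10.5 to 10.7) and 13.8% (13.7 to 13.8), with p = 1 in the same exact permutation test. These intervals cover counting error only. Wild-type 1 decided the order of the numbers: without it the difference turned from -158.5 to 195.5 members.

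The upper part of the class ordered the libraries otherwise. Members above 0.02% numbered 166, 80, 174 and 195. They averaged 123 ± 60.8 and 184.5 ± 14.8 (SD, n = 2 each), and held 4.65% ± 2.15 and 7.65% ± 0.421 of counts. The genotypes did not overlap, which gives the smallest possible p of 0.333 in the exact permutation test. Smaller clonotypes held 70.7%, 87.0%, 47.9% and 47.3% of counts.

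**Figure D1:**
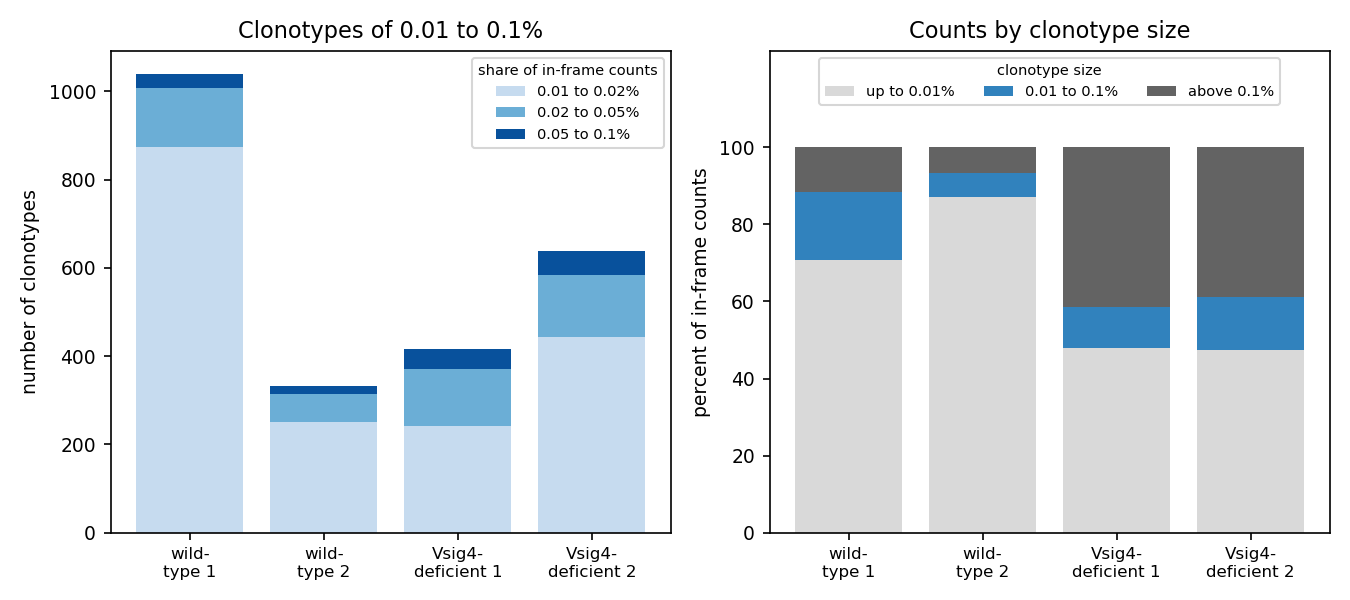
Left, number of clonotypes with 0.01 to 0.1% of in-frame counts in each of the 4 libraries, stacked by share; right, percent of in-frame counts in smaller clonotypes, in members and in larger clonotypes. Wild-type 1 and 2 have the most (1040) and the fewest (332) members, and most members of each library lie at or below 0.02%.

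V use of members differed from that of smaller clonotypes. The V segment encodes the CDR1 and CDR2 loops of the β chain and the start of CDR3. Counting each clonotype once, edgeR's quasi-likelihood test with the library as a block called 10 of 23 V segments (43.5% of those tested) at an adjusted p under 0.05. TRBV13-2 was higher in members and 9 segments were lower.

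TRBV13-2, one of the Vβ8 segments (chromosome 6, 41121396 to 41121832, GRCm38.p6), made up 35.8%, 29.8%, 20.9% and 22.4% of members. Among smaller clonotypes its share was 12.2%, 12.3%, 12.1% and 14.2%. Members were thus higher in 4 of 4 libraries, with a log2 ratio of 1.07 ± 0.29 (SE) and adjusted p = 0.031. The related TRBV13-1 and TRBV13-3 held 13.4% ± 0.935 and 14.4% ± 3.47 (SD, n = 4) of members against 9.32% ± 0.660 and 9.40% ± 0.914 of smaller clonotypes. Both were higher in 4 of 4 libraries but did not pass the test (log2 ratios 0.52 ± 0.26 and 0.59 ± 0.28, adjusted p = 0.129 and 0.128). Together the 3 TRBV13 segments were used by 64.5%, 63.3%, 44.2% and 48.2% of members. Among all smaller clonotypes it was 30.0%, 30.7%, 29.8% and 35.3%. In the step just below the members, 0.001 to 0.01%, it was 42.3%, 48.4%, 47.3% and 53.9%. Members thus lay above that step in the wild-type libraries and below it in the Vsig4-deficient ones.

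The Vβ5 segments TRBV12-1 and TRBV12-2 were both lower in members. TRBV12-1 was used by 0.962%, 2.11%, 3.12% and 1.56% of members and by 9.10%, 9.07%, 9.73% and 8.21% of smaller clonotypes (log2 ratio -2.34 ± 0.37, adjusted p = 0.0075). TRBV12-2 had a log2 ratio of -1.91 ± 0.57 (adjusted p = 0.036). All 4 libraries had lower values in members for both segments. TRBV4, TRBV2 and TRBV16 rested on 17, 7 and 5 members and had log2 ratios of -2.41 ± 0.42, -2.71 ± 0.43 and -3.13 ± 0.88. TRBV5 was used by 2 of 2427 members against 1.40% of smaller clonotypes, which is 17.0-fold lower with an exact Poisson interval of 4.70 to 140.1 (counting error only). No member used TRBV20, which 0.430% of smaller clonotypes used. With a floor of 3 clonotypes over all members it was at least 3.48-fold lower.

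Natural killer T cells favour TRBV13-2, TRBV29 and TRBV1, and of these 3 segments 1 was higher, 1 was lower and 1 did not pass. TRBV29 made up 2.35% ± 1.49 of members and 6.73% ± 0.641 of smaller clonotypes (SD, n = 4; log2 ratio -1.72 ± 0.47, adjusted p = 0.031). TRBV1 was used by 10%, 6.63%, 9.62% and 28.3% of members, against 6.59%, 6.73%, 6.81% and 7.98% of smaller clonotypes (adjusted p = 0.136). Receptor α chains and cell markers were not analysed here.

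The count of called V segments depended on single libraries and on the class used for comparison. It was 0 of 23 in edgeR without Vsig4-deficient 2 (smallest adjusted p 0.0548, 8 at an unadjusted p under 0.05) and 5 without wild-type 2, TRBV13-2 not among them. Against smaller clonotypes above 0.001% only, 0 of 21 segments passed in edgeR (smallest adjusted p 0.315, 1 at an unadjusted p under 0.05), and TRBV5, TRBV16 and TRBV19 turned sign. TMM scaling moved the median log2 ratio over V segments by 0.40 and called 15, of which 4 were higher. DESeq2 moved it by 1.02 and called 11, of which 5 were higher. TRBV12-2, TRBV19 and TRBV29 lost their call there (log2 ratios -0.93, -0.78 and -0.70). For members above 0.02%, TRBV19 and TRBV29 did (-0.91 and -0.68).

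**Figure D2:**
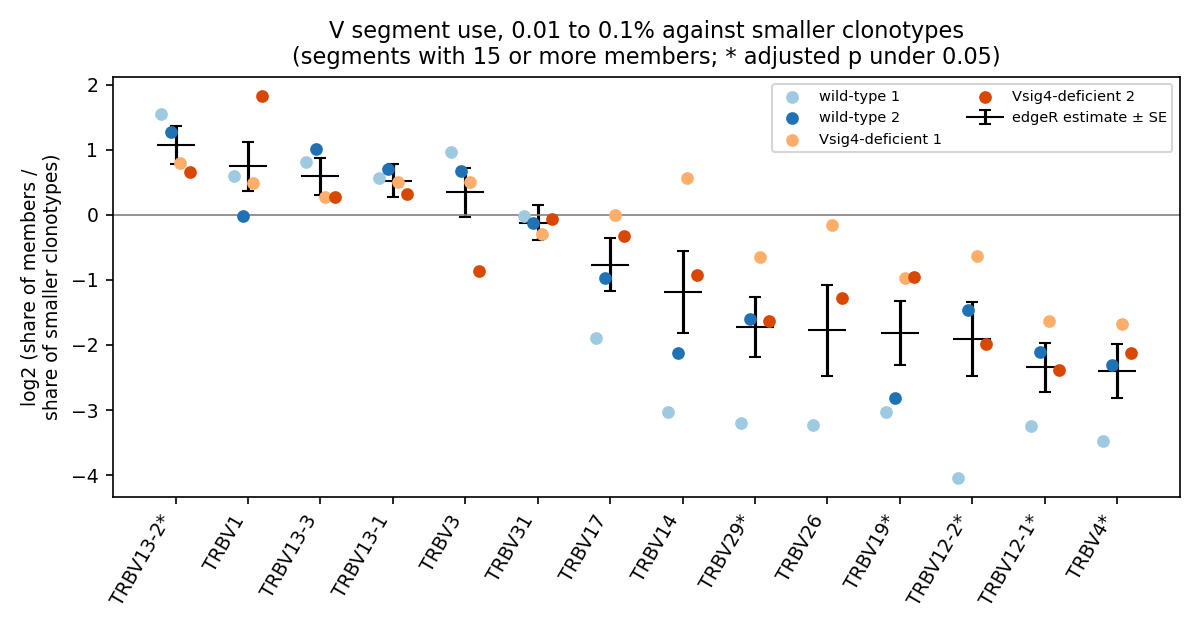
Log2 ratio of the share of members to the share of smaller clonotypes for each V segment with 15 or more members, as points per library and as the edgeR estimate with its SE; a library without a member of a segment has no point (TRBV26 in wild-type 2). TRBV13-2 is above 0 in 4 of 4 libraries and the starred segments on the right are below 0 in 4 of 4.

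Rearrangements that shift the reading frame make no receptor. In the 11 V segments compared, the mean differences between high and low counts had the same direction in them. They stay in cells whose other TRB allele is productive. For this comparison the 10% of rearrangements with the most counts were set against the rest of each library, separately in frame and out of frame. In frame this top 10% held 4664, 7321, 4517 and 6926 rearrangements. Most of them were smaller clonotypes, so the values do not describe the members themselves. No more than 11, 7, 33 and 32 out-of-frame rearrangements exceeded 0.01% of the in-frame total, too few to apply the member limits. Over the 11 V segments with at least 10 top rearrangements in both kinds, the direction was the same in 11 of 11, and Pearson's r across segments was 0.959 (Spearman's rho 0.827). These points share libraries and depth, so this is a description. TRBV21, left out with 9 top rearrangements in frame, went opposite ways. Its shares of top and rest were 0.0394% and 0.0616% in frame and 1.04% and 0.539% out of frame. The limit also left out TRBV12-2, TRBV2, TRBV5, TRBV16, TRBV19 and TRBV20, which were called lower in members. TRBV13-2 had log2 ratios of 1.50, 1.34, 1.38 and 0.96 in frame and from 0.75 to 1.17 out of frame. TRBV12-1 averaged -2.89 in frame and -2.60 out of frame. Sizes differed for other segments. TRBV17 was at -0.97 in frame and -2.24 out of frame, and TRBV31 at 0.59 and 1.22. In the comparison of members with smaller clonotypes TRBV31 was at -0.12 ± 0.27 (SE), lower in every library. TRBV13-1 was at 0.72, 0.73, 0.56 and 0.71 in frame and at 0.53, -0.05, -0.34 and 0.50 out of frame, so its out-of-frame direction differed between libraries. TRBV23 averaged -0.20 in frame and -0.14 out of frame. Its in-frame values of -0.79, -1.22, -0.31 and 0.73 also differed in direction.

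Among J segments the direction was shared by 9 of 12 and r was 0.611 (rho 0.545), over a narrower range of log2 ratios than for V. V and J were not compared by a test. TRBJ1-1 and TRBJ1-4 had log2 ratios of -0.61 and -0.63 in frame and of -0.04 and -0.01 out of frame. The out-of-frame values of TRBJ1-1 went both ways, at 0.21, -0.05, -0.68 and 0.22, and those of TRBJ1-4 ran from -0.18 to 0.12. TRBJ1-5 was lower in both, at -0.70 and -0.63, and TRBJ2-1 was at 0.42 and 0.17.

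**Figure D3:**
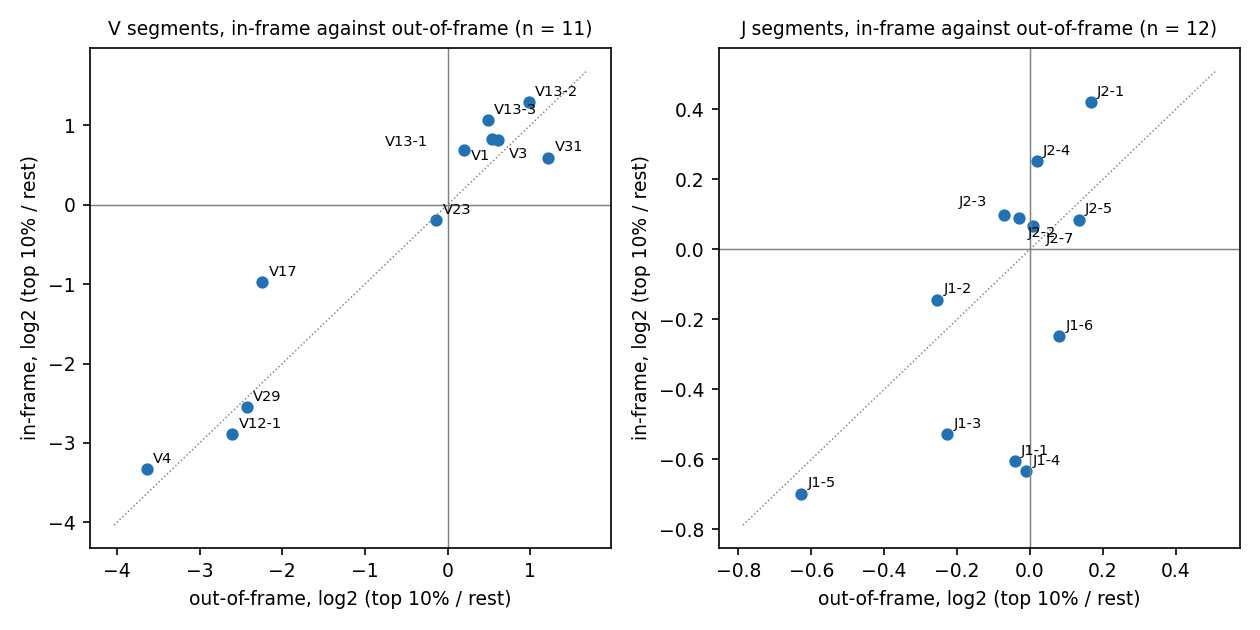
Log2 ratio of the share among the top 10% of rearrangements by count to the share among the rest, in frame (vertical) against out of frame (horizontal), as means of shares over 4 libraries; the dotted line marks equal values. The 11 V segments (left) have the same sign on both axes, with TRBV17 and TRBV31 off the line; TRBJ1-1 and TRBJ1-4 (right) have means of -0.04 and -0.01 out of frame and of -0.61 and -0.63 in frame.

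TRBV1 stood out in 1 library. Of the Vsig4-deficient 2 members, 181 of 639 used TRBV1, and at 0.01 to 0.02% it was 34.7% of members, while between 0.001% and 0.01% it was 11.9% of clonotypes. Their median share was 0.0129% and 85.1% of them were at or below 0.02%. As a share of in-frame counts, the 95th percentile of in-frame TRBV1 rearrangements was 0.00846%, 0.00466%, 0.00491% and 0.00774%, so wild-type 1 was higher than Vsig4-deficient 2. Out of frame it was 0.0032%, 0.00198%, 0.0024% and 0.00603%, highest in Vsig4-deficient 2. TRBV3 was low in the same library, with 5.32% of members against 17.2%, 14.2% and 12.7% in the other 3.

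The share of a segment's clonotypes that were members differed widely between libraries. For TRBV13-2 it was 6.15%, 1.08%, 1.52% and 1.43% of its clonotypes. For TRBV13-3 it was 3.78%, 0.901%, 1.07% and 1.10%. TRBV3 reached 4.18% in wild-type 1 and 0.505% in Vsig4-deficient 2. Wild-type 1 had the highest value for each of the 5 most used segments.

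J use differed in 5 of 12 segments (41.7% of those tested; edgeR as for V). TRBJ2-1 was higher in members and 4 TRBJ1 segments were lower. TRBJ2-1 (chromosome 6, 41542754 to 41542803, GRCm38.p6) was used by 21.1%, 18.1%, 15.4% and 20.2% of members and by 14.2%, 13.8%, 13.7% and 15.2% of smaller clonotypes, with a log2 ratio of 0.42 ± 0.09 (adjusted p = 0.00032). Members were higher in 4 of 4 libraries.

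TRBJ1-5 was the lowest, at 1.06%, 1.2%, 1.44% and 1.57% of members and 2.36%, 2.42%, 2.80% and 2.49% of smaller clonotypes (log2 ratio -0.96 ± 0.24, adjusted p = 0.0011). TRBJ1-4 and TRBJ1-3 were also lower in 4 of 4 libraries (log2 ratios -0.76 ± 0.16 and -0.51 ± 0.18). TRBJ1-1 was lower in 3 of 4 (-0.48 ± 0.12), and Vsig4-deficient 1 had 11.1% of members against 9.89%. Its log2 ratios by library were -0.61, -1.02, 0.16 and -0.65, and its SE draws on the spread of the other segments too. The TRBJ1 cluster as a whole took 23.2% ± 3.66 of members and 31.5% ± 0.621 of smaller clonotypes (SD, n = 4). Among the other frequent J segments, TRBJ2-7 (20.1% ± 1.36 of members), TRBJ2-5 (12.8% ± 1.91), TRBJ2-4 (9.74% ± 1.42) and TRBJ2-3 (8.81% ± 2.30) had log2 ratios from 0.01 to 0.15 and did not pass.

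J use was also compared at equal V use. With members redefined by rank of counts within each V segment of a library, so that V use was nearly equal by construction, TRBJ2-1, TRBJ1-1, TRBJ1-4 and TRBJ1-5 were still called (log2 ratios 0.51, -0.39, -0.68 and -0.87). Without wild-type 1 only TRBJ1-4 was called, and for members above 0.02% 0 of 12 passed in edgeR (1 at an unadjusted p under 0.05).

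Members had shorter CDR3 loops. Mean length was 13.72, 13.49, 13.85 and 13.85 residues in members and 13.95, 13.92, 13.94 and 13.95 in smaller clonotypes. The difference was -0.22 ± 0.16 residues (SD, n = 4), lower in 4 of 4 libraries. The two-sided exact sign-flip permutation test gave p = 0.125, the smallest p for 4 libraries (0.138 after adjustment over 11 properties). With smaller clonotypes weighted to the V use of the members it was -0.26 ± 0.15. Without wild-type 2 it was -0.14. For members above 0.02% it was -0.09, with p = 0.5 in the same exact sign-flip permutation test. In wild-type 2, members averaged 14 residues at 0.02 to 0.05% and 14.5 at 0.05 to 0.1%, longer than its smaller clonotypes. In the other libraries members of both steps stayed shorter.

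By length class, 3 of 15 classes (20% of those tested) passed in edgeR, and all 3 were short and higher in members. Loops of 10 residues made up 1.63%, 2.71%, 1.68% and 2.03% of members and 1.02% to 1.08% of smaller clonotypes (log2 ratio 0.87 ± 0.22, adjusted p = 0.0016). Loops of 11 and 12 residues had log2 ratios of 0.60 ± 0.12 and 0.40 ± 0.08 (adjusted p = 0.00014 each). Loops of 14 residues, the most frequent class, made up 28.7% ± 1.57 of members and 30.8% ± 0.173 of smaller clonotypes (SD, n = 4) and did not pass. For members above 0.02%, 0 of 15 classes passed (2 at an unadjusted p under 0.05). With members ranked within V segments 11 residues stayed higher (0.51) and 17 residues was lower (-0.86), while 10 and 12 residues did not pass (0.47 and 0.25).

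The shorter loops went with fewer bases between V and J. These averaged 8.34, 7.90, 9.14 and 8.92 in members and 9.48, 9.47, 9.48 and 9.48 in smaller clonotypes. The difference was -0.90 ± 0.56 bases (SD, n = 4; exact sign-flip permutation p = 0.125), and -0.84 ± 0.60 with smaller clonotypes weighted to the V use of members. It was larger in the wild-type libraries (-1.14 and -1.57) than in the Vsig4-deficient ones (-0.34 and -0.56), without overlap, at the smallest exact permutation p of 0.333 for 2 against 2. Untemplated bases, counted where a D segment was called, averaged 2.33 ± 0.186 in members and 2.77 ± 0.014 in smaller clonotypes. A D segment was called for 71.7% ± 3.68 of members and 76.3% ± 0.0755 of smaller clonotypes (SD, n = 4). These means therefore rest on unequal parts of the classes.

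Size changed this within the class. In wild-type 2, members of 0.01 to 0.02% had 7.53 bases between V and J, those of 0.02 to 0.05% had 8.81, and those of 0.05 to 0.1% had 10.1. In Vsig4-deficient 2 the same steps gave 8.83, 8.87 and 9.80. At 0.05 to 0.1% wild-type 1 had 8.67 and Vsig4-deficient 1 had 9.73. The last step holds 17 to 55 members per library. The lowest means of members were in the step of 0.01 to 0.02%, in 4 of 4 libraries. Loops with at most 3 such bases were 12.2%, 17.9%, 10.3% and 9.23% of that step and 6.18%, 6.52%, 6.37% and 6.44% of clonotypes up to 0.001%. Out of frame, the top 10% by count also had fewer bases between V and J than the rest, by -0.73, -0.32, -0.10 and -0.25, against -0.67, -0.67, -0.39 and -0.42 in frame.

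**Figure D4:**
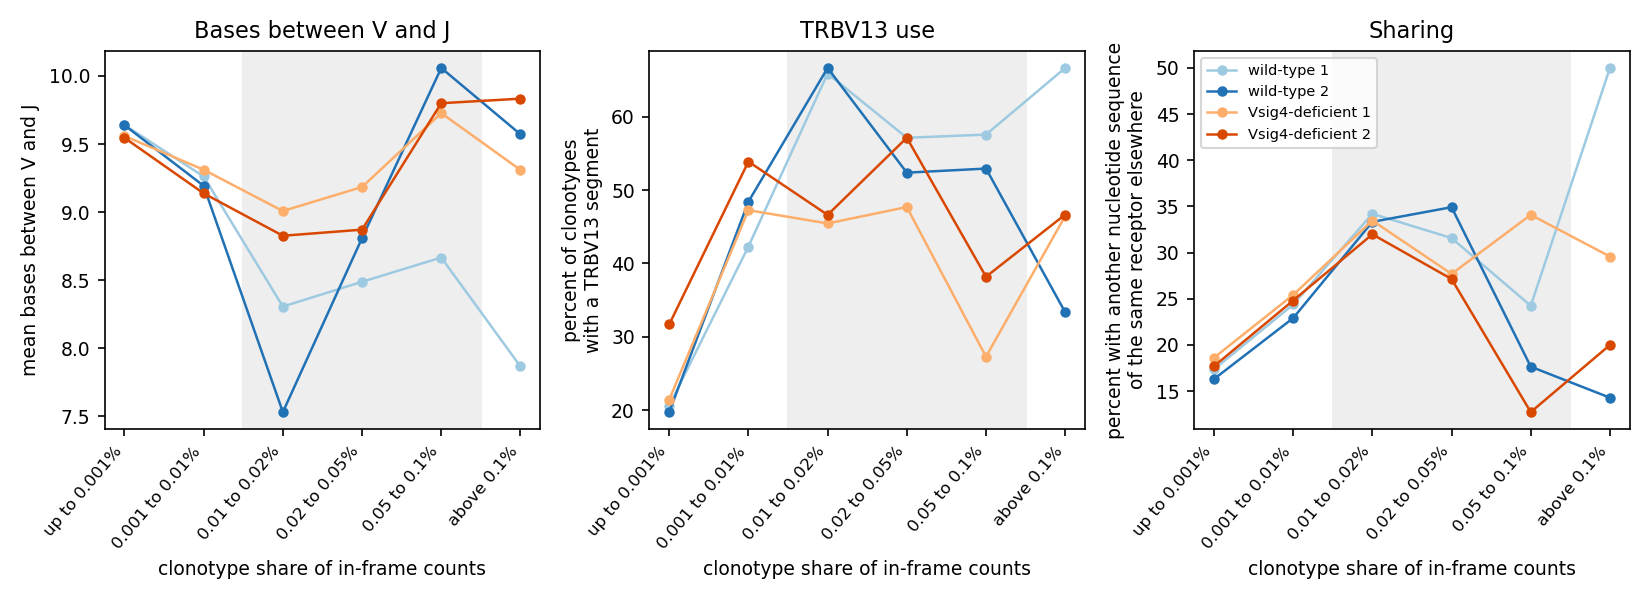
Mean bases between V and J, percent of clonotypes with a TRBV13 segment, and percent with another nucleotide sequence of the same receptor in another library, by share of in-frame counts and library; the grey band holds the members. Bases between V and J are lowest among members at 0.01 to 0.02% and higher at 0.05 to 0.1% in 4 of 4 libraries, while sharing rises up to 0.01 to 0.02% in 4 of 4.

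Within V segments, CDR3 length was compared for the 10 segments with at least 5 members in every library. limma on the 4 differences per segment called 3 (30% of those tested). Its SE was pooled over the segments and equal for all of them, whatever their number of members. TRBV13-1 members differed from smaller TRBV13-1 clonotypes by -0.44, -0.78, -0.17 and -0.40 residues (mean -0.45 ± 0.15 SE, adjusted p = 0.031). TRBV31 members were shorter as well (-0.40 ± 0.15, adjusted p = 0.045). TRBV29 members were longer (0.47 ± 0.15, adjusted p = 0.031) but numbered 8, 8, 18 and 12 per library. TRBV13-2 and TRBV13-3 were shorter in 4 of 4 libraries, at -0.31 ± 0.15 and -0.27 ± 0.15, and did not pass. Weighting by the number of members called TRBV13-1, TRBV13-2 and TRBV13-3 (-0.44, -0.28 and -0.29). It called neither TRBV29 nor TRBV31 (adjusted p = 0.055 each in limma). Without wild-type 2, Vsig4-deficient 1 or Vsig4-deficient 2, 0 segments passed (1, 4 and 3 at an unadjusted p under 0.05), and without wild-type 1, 1 passed. Bases between V and J gave 0 of 10 calls in limma (2 at an unadjusted p under 0.05).

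Of the 20 residues, counted over the loop without its first 4 and last 4 positions, 10 differed in frequency (50% of those tested; edgeR). Alanine and aspartate were higher in members and 8 residues were lower. Alanine, a small residue, made up 11.8%, 12.2%, 10.4% and 12.4% of loop residues in members and 8.73% ± 0.210 (SD, n = 4) in smaller clonotypes (log2 ratio 0.43 ± 0.06, adjusted p = 1.32e-08). Aspartate, which is acidic, had 12.8% ± 1.41 against 9.70% ± 0.212 (SD, n = 4; 0.40 ± 0.06, adjusted p = 2.39e-08). Both were higher in 4 of 4 libraries.

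Among the lower residues, methionine (-1.15 ± 0.37, 12 residues in members), phenylalanine (-0.60 ± 0.15), isoleucine (-0.59 ± 0.16) and leucine (-0.42 ± 0.07) were lower in 4 of 4 libraries. So were proline (-0.50 ± 0.09), glutamine (-0.26 ± 0.07) and the other two. Glycine, the most frequent residue, made up 22.0% ± 0.880 in members and 21.9% ± 0.122 in smaller clonotypes (SD, n = 4).

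Fewer of these residues were called at equal V use. With members ranked within V segments alanine was still higher (0.19) and aspartate did not pass (0.09), leucine turned to 0.03, and 5 residues were called in all. These were alanine, tryptophan (0.20) and tyrosine (0.27) on the higher side and glutamate (-0.29) and serine (-0.16) on the lower. TMM scaling moved the median log2 ratio over residues by 0.13 and called 10, of which 5 were higher. Hydrophobic residues at both positions 6 and 7 were found in 4.19% ± 0.788 of members and 2.72% ± 0.0714 of smaller clonotypes, higher in 4 of 4 libraries (exact sign-flip permutation p = 0.125). The difference of 1.46 points was 0.668 after weighting to V use (0.0215 in Vsig4-deficient 2) and 0.478, higher in 3 of 4, after weighting to V and J use. Mean net charge of the loop was -0.60 ± 0.12 and -0.47 ± 0.02 (SD, n = 4), higher in members in 1 of 4 libraries (p = 0.25 in the same exact test), and weighting to V use turned the difference to 0.04.

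Members were more often reached by a second nucleotide sequence in another library. The share of clonotypes whose receptor (CDR3 amino acids, V and J) was listed elsewhere with other bases was 33.6%, 32.8%, 31.7% and 29.3% in members and 20.4%, 18.8%, 20.8% and 18.8% in smaller clonotypes. The difference was 12.1 ± 1.73 percentage points (SD, n = 4), higher in 4 of 4 libraries, with the smallest possible exact sign-flip permutation p of 0.125. With smaller clonotypes weighted to the V use of the members it was 10.1 ± 0.824. Requiring at least 2 bases different from the clonotype itself gave 21.3%, 18.7%, 21.6% and 18.6% against 13.4%, 12.2%, 13.5% and 12.1%. Listing of the same nucleotide sequence was more uneven, at 36.0%, 70.5%, 83.9% and 31.6% of members and 19.0%, 15.2%, 20.2% and 18.8% of smaller clonotypes.

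Sharing by other bases was measured for every ordered pair of libraries. Members of a library were found in another by other bases at 14.6% to 24.4%, and smaller clonotypes at 8.57% to 12.3%. The ratio of the 2 shares was above 1 in 12 of 12 ordered pairs and ran from 1.54 to 2.14. Pairs of the same genotype had ratios from 1.74 to 2.14 and pairs of different genotypes from 1.54 to 2.12, which overlap. Shares by the same bases ran from 9.86% (Vsig4-deficient 1 in wild-type 2) to 80.3% (Vsig4-deficient 1 in Vsig4-deficient 2).

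**Figure D5:**
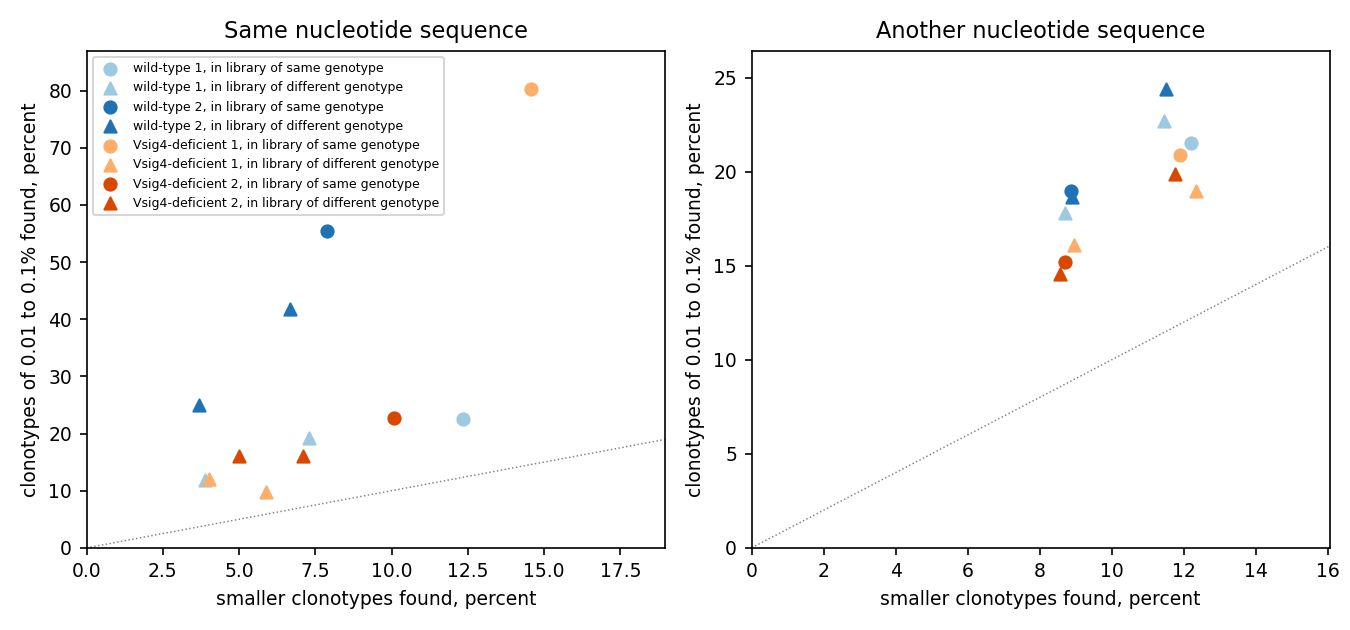
Percent of members (vertical) and of smaller clonotypes (horizontal) of a library that were found in another library with the same nucleotide sequence (left) or with another nucleotide sequence of the same receptor (right); colours give the library, shapes whether the other library has the same genotype, and the dotted line marks equal shares. On the right the 12 pairs lie between 14.6% and 24.4%, all above the line; on the left Vsig4-deficient 1 in Vsig4-deficient 2 is at 80.3%.

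Members also had more close relatives in their own library. The share with another clonotype of the same V, J and length that differed by 1 residue and at least 2 bases was 63.2%, 70.2%, 54.6% and 67.1%, against 47.4%, 55.3%, 47.5% and 54.6% of smaller clonotypes. The difference was 12.6 ± 3.90 percentage points (SD, n = 4; exact sign-flip permutation p = 0.125), and 8.78 ± 2.50 after weighting to V use. A second nucleotide sequence of the same receptor in the same library was listed for 17.1%, 23.5%, 13.7% and 18.8% of members. Among smaller clonotypes it was 10.5%, 13.5%, 10.2% and 12.3%. For this share 1 different base was enough, so single-base errors were not set apart. For 3 receptors a library held 3 member sequences. In the set shown, convergent a, b and c had 175, 115 and 89 counts in wild-type 1 and 7, 8 and 11 bases between V and J.

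Few receptors were members in more than 1 library. Of 2305 distinct receptors, 2230 were members in 1 library, 64 in 2, 9 in 3 and 2 in all 4. Of the 75 in several libraries, 35 had 1 member nucleotide sequence and 40 had several. Wild-type 1 and Vsig4-deficient 2 shared 30 member receptors, which is 2.93% and 4.75% of their lists. The wild-type libraries shared 27 (2.64% and 8.31%) and the Vsig4-deficient libraries 11 (2.66% and 1.74%). The 75 recurrent receptors averaged 12.96 residues and 5.88 bases between V and J, against 13.81 and 8.81 for members of 1 library, and 74.7% against 55.0% used a TRBV13 segment.

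Recurrent 1 had 611, 186, 274 and 1220 counts in the 4 libraries, which is 0.0698%, 0.0217%, 0.0286% and 0.0994%. Recurrent 2 had 159, 108, 101 and 519 counts. Both were members in 4 of 4 libraries through a single sequence, and both were highest in Vsig4-deficient 2. Recurrent 3 was highest in wild-type 2 (841 counts) and had 200, 58 and 402 in the other 3. The fourth recurrent receptor (TRBV13-3, TRBJ2-5) had 418, 402 and 279 counts in the 3 libraries where it was a member and 1523 counts, or 0.124%, in Vsig4-deficient 2.

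The recurrent 5 set was a member in 3 libraries, through a different sequence in each. Recurrent 5a had 118 counts in wild-type 1 and none in the other 3. Recurrent 5b had 690 in Vsig4-deficient 1, 8 in Vsig4-deficient 2 and 1 in wild-type 1. Recurrent 5c had 118 in wild-type 2 and 2 in wild-type 1. Recurrent 6a and 6b have 3 and 4 bases between V and J. They had 70 and 150 counts in wild-type 1, 141 and 230 in wild-type 2, 3 and 1 in Vsig4-deficient 1 and 318 and 37 in Vsig4-deficient 2.

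Segment use of members was then compared between genotypes. In edgeR 0 of 14 V segments (0% of those tested) and 0 of 12 J segments (0%) passed. The smallest adjusted p were 0.129 and 0.760, and DESeq2 called 0 in both. At an unadjusted p under 0.05 there were 4 V and 0 J segments. The 4, named after their values were seen, were TRBV14, TRBV17, TRBV19 and TRBV26, each higher in Vsig4-deficient members (log2 ratios 2.51 ± 0.77, 1.35 ± 0.47, 1.62 ± 0.45 and 2.89 ± 0.88). These are ratios of shares, whose median over the 14 V segments was 0.96. TMM and DESeq2 moved that median by -0.77 and -0.76, and each left 1 segment at an unadjusted p under 0.05. TRBV19 made up 0.577%, 0.602%, 2.16% and 1.56% of members. TRBV13-2 was lower in both Vsig4-deficient libraries (means 32.8% ± 4.21 and 21.6% ± 1.04, SD, n = 2 each; adjusted p = 0.290). The interaction of class and genotype, which asks whether members differ from smaller clonotypes by another ratio in each genotype, called 0 of 23 V segments (smallest adjusted p 0.200, 4 at an unadjusted p under 0.05) and 0 of 12 J segments (0.691, 0 at an unadjusted p under 0.05). Without Vsig4-deficient 2, 1 J segment passed.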

How the data were processed

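TRB repertoires of sorted CD8+ T cells were measured in 2 wild-type and 2 Vsig4-deficient libraries. Each deposited table holds whole-number clone counts per nucleotide CDR3, not normalized, as its header names them. Neither the clonotype program nor whether a count stands for a read or a molecule was given in the sources. The genome build mm10 is named per the submitters' processing notes. Segment positions are from RefSeq, GRCm38.p6.

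Rows that broke the frame or held a stop codon were left out, and rows identical in sequence, V and J were summed. The members, lists and tests were chosen with earlier results of these data known. Class comparisons used edgeR 4.0.16 in R 4.3.3 (quasi-likelihood, common dispersion, class totals as offsets, at least 10 clonotypes per feature, Benjamini-Hochberg, threshold 0.05), with the library as a block. The SE printed with an edgeR log2 ratio was back-calculated, as the absolute ratio over the square root of the F statistic. It therefore carries edgeR's pooling of spread over the features tested. Length within V used limma 3.58.1, single values exact permutation tests, other steps Python 3.11.15 (pandas 2.3.3, numpy 2.4.6, SciPy 1.17.1, matplotlib 3.10.9). edgeR was tested on simulated data and the sharing rules on made-up clonotypes. The simulated spread between libraries was set, not taken from these data. How the test behaves at the spread seen here was not checked. "Smaller" includes clonotypes of 1 count, 17.7% to 33.4% of them.

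Text names features past the threshold (up to 6 per direction), the 5 most used V and J segments, members at the limits, the first 6 recurrent receptors and the receptor with the most sequences in 1 library. Alternatives were TMM, DESeq2 1.42.0, no filter, other limits for either class, single-base neighbours or faint copies left out, amino acids as the clonotype, equal depth, all counts as denominator, a replicate block and each library left out. Ranking within V, the 5% rule on shares elsewhere, at least 2 different bases, weighting by members or by V and J use, the crossed pairing and the out-of-frame comparison were added after the data were seen. Replicate numbers were not used as pairs: deviations of V use of same-numbered libraries had r = -0.479 over 14 segments.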

Additional observations from a re-analysis of the deposited data

Results flagged for a closer look

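Differences between members and smaller clonotypes were screened for features in which both wild-type libraries moved one way and both Vsig4-deficient libraries the other, over 81 features and properties. With 2 libraries per genotype such a pattern arises easily, and these differences between genotypes were not tested. The pattern was met by 3 features. Glycine in the loop was lower in members by 0.670 and 0.761 percentage points in the wild-type libraries and higher by 0.316 and 1.37 in the Vsig4-deficient ones, a gap of 1.56 points between genotype means. Loops of 8 residues (gap -0.186 points) rest on 2 members. Cysteine (gap -0.0485 points) rests on 3 residues in members.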

How the results depend on the processing

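Of the values of 27 named features under the alternatives, 392 of 396 kept their direction and 80 fell short of the threshold. The 4 that turned were TRBV16 (1.78), TRBV19 (1.38) and TRBV5 (0.62) against smaller clonotypes above 0.001% only, and leucine (0.03) with members ranked within V segments. Differences in length, bases between V and J, sharing and neighbours kept their sign under every alternative run. Neighbours were marked once over all clonotypes, so leaving out single-base neighbours or faint copies could not unmark a member. Counts of calls moved by over 1.5 times as follows, and the cause was not tested. With 1-count clonotypes left out, V had 6, all lower. TRBV13-2 was then not called (log2 ratio 0.98, adjusted p = 0.0581 in edgeR). Against smaller clonotypes above 0.001% only, V had 0, J 3, residues 4 and length within V 1. For members above 0.02%, J had 0, length classes 0, residues 3 and length within V 0, fewer members being tested. DESeq2 gave J 3, amino acids as the clonotype gave length classes 6, and ranking within V gave residues 5 and length within V 5. Leaving out a library gave 0 to 13 calls for V, 1 to 5 for J, 2 to 3 for length classes, 8 to 9 for residues, 0 to 1 for length within V and, by genotype, 0 to 1 for J.

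By genotype, the difference in number (Vsig4-deficient minus wild-type) turned to 61.5 for members above 0.02% and ran from -512.5 to 195.5 with a library left out. The difference in share of counts, 0.236 percentage points, turned to -1.48 with amino acids as the clonotype and ran from -5.32 to 5.80. With the replicate block 0 V and 0 J segments passed by genotype, and the exact p for the number of members stayed at 1, so it changed no call. The crossed pairing gave 7 V and 0 J calls. With 2 libraries per genotype no difference in a single value can pass 0.05.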
